A study of Rattus norvegicus with 6 samples.

Results

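The 7 subunits of respiratory complex I that are encoded in mitochondrial DNA, Mt-nd1 to Mt-nd6 and Mt-nd4l, were followed in cultured neonatal rat ventricular cardiomyocytes, the beating muscle cells of the heart's pumping chambers taken from newborn rats. The treated cells received 10 µM erastin for 24 h (n = 3 libraries) and were set against control cells (n = 3 libraries). Erastin stops cells from importing cystine through the cystine/glutamate exchanger, and so brings on ferroptosis, a death by iron-dependent peroxidation of lipids. The study asked how gene expression differs in cardiomyocytes under this treatment. The deposited table is titled as erastin against vehicle, so the control cells received the vehicle. What the vehicle was, the rat strain and the sex of the animals are not stated in the sources used here. The members were taken by their Ensembl gene identifiers, ENSRNOG00000030644 (Mt-nd1), ENSRNOG00000031033 (Mt-nd2), ENSRNOG00000033615 (Mt-nd3), ENSRNOG00000031053 (Mt-nd4l), ENSRNOG00000029707 (Mt-nd4), ENSRNOG00000029971 (Mt-nd5) and ENSRNOG00000029042 (Mt-nd6). All 7 were among the 34052 features of the deposited table, and all 7 were among the 13576 features that passed the filter on low values, at least 1 FPKM in at least 3 libraries.

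Complex I, the NADH dehydrogenase, takes electrons from NADH and passes them to ubiquinone while pumping protons across the inner mitochondrial membrane. The mitochondrially encoded subunits form the core of its membrane arm, and all other subunits are imported from the cytosol. Cardiomyocytes are rich in mitochondria, and complex I is a known site of superoxide formation. Mammalian mitochondrial DNA is transcribed as long precursors that are cut into single messages. Mt-nd1 and Mt-nd2 lie early on the heavy-strand precursor, after the ribosomal RNAs, and Mt-nd3, Mt-nd4l, Mt-nd4 and Mt-nd5 follow later in that order. Mt-nd4l and Mt-nd4 have overlapping reading frames and share a single message. Mt-nd6 is the only member transcribed from the other strand.

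The values were FPKM, fragments scaled to the length of the feature and to the total of the library. Read totals worked out from the steps between low FPKM were 11126968 to 12017459 reads in the erastin libraries and 11506854 to 14914827 reads in the control libraries. The 7 members had 1269 to 62384 reads in a library, where counting error alone gives a 95% Poisson half-width of 5.66% at the lowest and 0.788% at the highest. Nothing in the labels tells whether the 3 libraries per group are separate cultures, so p-values cover only the spread seen between libraries, which may be technical. Control replicate 2 stood apart from the other control libraries in Mt-nd4, and results that rest on it are given with and without that library. Cell type markers could not be matched to the feature identifiers and were not analysed here, so the labelled cell type was not checked against its markers.

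The counted lengths recovered from the same steps were used to check the identity of the members. They were 955 bases for Mt-nd1, 1039 for Mt-nd2, 348 for Mt-nd3, 297 for Mt-nd4l, 1378 for Mt-nd4, 1830 for Mt-nd5 and 519 for Mt-nd6. Mt-nd5 was thus the longest and Mt-nd4l the shortest, as among these genes in mammalian mitochondrial DNA. No reference lengths were compared, so this checks only the longest and the shortest member.

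Erastin libraries held less than control libraries of 6 of the 7 transcripts. Mt-nd1, Mt-nd2, Mt-nd3, Mt-nd4l, Mt-nd5 and Mt-nd6 fell in limma with Benjamini-Hochberg adjusted p-values under 0.05, and Mt-nd4 did not pass. In limma 0 members rose, also at an unadjusted p under 0.05 and with limma's voom method on recovered reads, since all 7 log2 fold changes were below 0. Among all tested features 66.4% passed this threshold in either direction and 24.1% passed it as lower. For 6 members every erastin value also lay below every control value, which held for 26.3% of all tested features. A fall by a log2 fold change of at least 1 was called for 5 members and for 4.75% of all tested features. Mt-nd2 lay at this limit, with -1.01. The count was 4 without Mt-nd2 when erastin replicate 2, control replicate 1 or control replicate 3 was left out and under quantile normalization. It was 6 with Mt-nd1 when libraries were centred, and 6 with Mt-nd4 when control replicate 2 was left out. The median log2 fold change was -1.39 over the 7 members and 0.13 over all tested features. In bulk RNA, fewer mitochondria-rich cells and less of these transcripts per cell cannot be told apart.

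**Figure D1:**
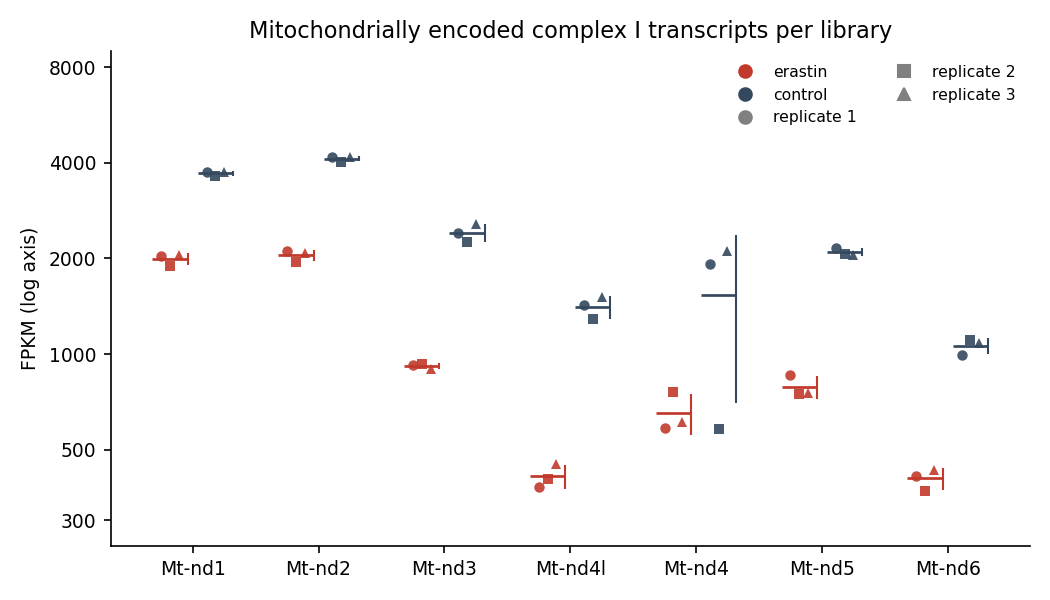
FPKM of the 7 transcripts in each library on a log axis, erastin left of control within each gene, with a horizontal line at the mean and a vertical line for the SD (n = 3). Every erastin value lies below every control value for 6 transcripts, and for Mt-nd4 control replicate 2, at 580.5 FPKM, lies below the 3 erastin libraries.

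Mt-nd1 and Mt-nd2, the subunits encoded early on the heavy strand, were the most abundant members in both groups. Mt-nd1, which lies where the membrane arm meets the ubiquinone-binding site, had 2037, 1893 and 2052 FPKM in erastin replicates 1 to 3, against 3737, 3634 and 3736 FPKM in control replicates 1 to 3. The groups did not overlap, and libraries within a group lay close together. Its mean was 1994 ± 88.1 FPKM in erastin and 3702 ± 58.9 FPKM in control libraries (SD, n = 3 each), a log2 fold change of -0.89 (limma, adjusted p = 4.86e-07, SE 0.038). Mt-nd2, an antiporter-like subunit of the proton-pumping arm, had 2107, 1954 and 2087 FPKM in erastin replicates 1 to 3, against 4165, 4026 and 4160 FPKM in control replicates 1 to 3. Every erastin library was again below every control library. Its log2 fold change was -1.01 (limma, adjusted p = 2.42e-07, SE 0.037), a mean 50.2% lower in erastin libraries. Under quantile normalization, which forces the same distribution on every library, the log2 fold changes were smaller, -0.26 for Mt-nd1 (limma, adjusted p = 0.000113) and -0.33 for Mt-nd2 (limma, adjusted p = 1.29e-05).

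Mt-nd3 and Mt-nd5 had more negative log2 fold changes. Mt-nd3, a small subunit next to the ubiquinone channel, had 928, 930 and 897 FPKM in erastin replicates 1 to 3, against 2408, 2249 and 2567 FPKM in control replicates 1 to 3. The groups were well apart, and the erastin libraries differed among themselves by only a few percent. Its log2 fold change was -1.39 (limma, adjusted p = 1.94e-07, SE 0.049), and its mean was 2.62-fold lower in erastin libraries. Mt-nd5, the largest member and an antiporter-like subunit at the far end of the membrane arm, had 862, 751 and 753 FPKM in erastin replicates 1 to 3, against 2159, 2066 and 2046 FPKM in control replicates 1 to 3. Erastin replicate 1 was the highest of its group and still far below the control libraries. Its log2 fold change was -1.41 (limma, adjusted p = 4.15e-07, SE 0.057), and its mean was 2.65-fold lower in erastin libraries.

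Mt-nd4l, a small subunit of the membrane arm, had the most negative log2 fold change of the 7. It had 383, 404 and 453 FPKM in erastin replicates 1 to 3, against 1427, 1287 and 1514 FPKM in control replicates 1 to 3. The groups did not overlap, and this was also the member with the fewest reads, 1269 to 1496 in erastin and 4876 to 5701 in control libraries. Its mean was 413 ± 35.7 FPKM in erastin and 1409 ± 114 FPKM in control libraries (SD, n = 3 each), 3.41-fold lower, with a log2 fold change of -1.77 (limma, adjusted p = 2.94e-06, SE 0.080). Among all tested features, 1.04% had a more negative log2 fold change than Mt-nd4l, against 6.14% for Mt-nd1.

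Mt-nd4, an antiporter-like subunit that shares its message with Mt-nd4l, gave no call, and a single control library decided this. It had 586, 763 and 613 FPKM in erastin replicates 1 to 3, against 1923, 580.5 and 2107 FPKM in control replicates 1 to 3. Control replicates 1 and 3 were far above the erastin libraries, and control replicate 2 was below all of them. The log2 fold change was -1.03 (limma, adjusted p = 0.194, SE 0.591), with a 95% confidence interval of -2.63 to 0.57. Without control replicate 2 it was -1.63 (limma, adjusted p = 0.000442, SE 0.132), and the mean of erastin libraries was then 3.08-fold below that of the 2 other control libraries. Leaving out any of the other libraries gave -1.15 to -0.70, which did not pass.

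The other members did not share the low value of control replicate 2. Its FPKM there was 0.288 times the mean of control replicates 1 and 3, while the same ratio was 0.875 for Mt-nd4l, 0.904 for Mt-nd3, 0.967 for Mt-nd2, 0.973 for Mt-nd1, 0.982 for Mt-nd5 and 1.07 for Mt-nd6. The FPKM of Mt-nd4l was 0.654, 0.529 and 0.738 times that of Mt-nd4 in erastin replicates 1 to 3, against 0.742, 2.22 and 0.719 times in control replicates 1 to 3. All libraries but control replicate 2 thus had a lower FPKM for Mt-nd4l than for Mt-nd4. The genes differ in length and share a message, so this ratio does not show a difference in abundance. At the depth of control replicate 2, Mt-nd4 was 29485 reads short of the mean of the other control libraries, from 11930 reads counted. The largest excess of any other feature in that library was 3693 reads, and the largest shortfall of any other feature was 8582 reads. The cause of the low Mt-nd4 value was not tested. Over 6788 features with a mean no lower than the median tested feature, 4 were at least 3-fold lower in control replicate 2 than in both other control libraries, Mt-nd4 among them.

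Mt-nd6, the light-strand member and a subunit of the membrane arm, fell by about as much as Mt-nd3 and Mt-nd5. It had 415, 371 and 434 FPKM in erastin replicates 1 to 3, against 995, 1112 and 1088 FPKM in control replicates 1 to 3. The groups were apart by more than the spread within either. Its log2 fold change was -1.39 (limma, adjusted p = 1.70e-06, SE 0.067). The libraries were made from poly(A) RNA, and in human cells the message of this gene is known to carry little or no poly(A) tail, so its level here need not reflect its abundance in the cell. The libraries mark strand, but no source used here states whether the counting used it, so reads from heavy-strand precursors that run antisense through the gene cannot be told apart from its own.

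**Figure D2:**
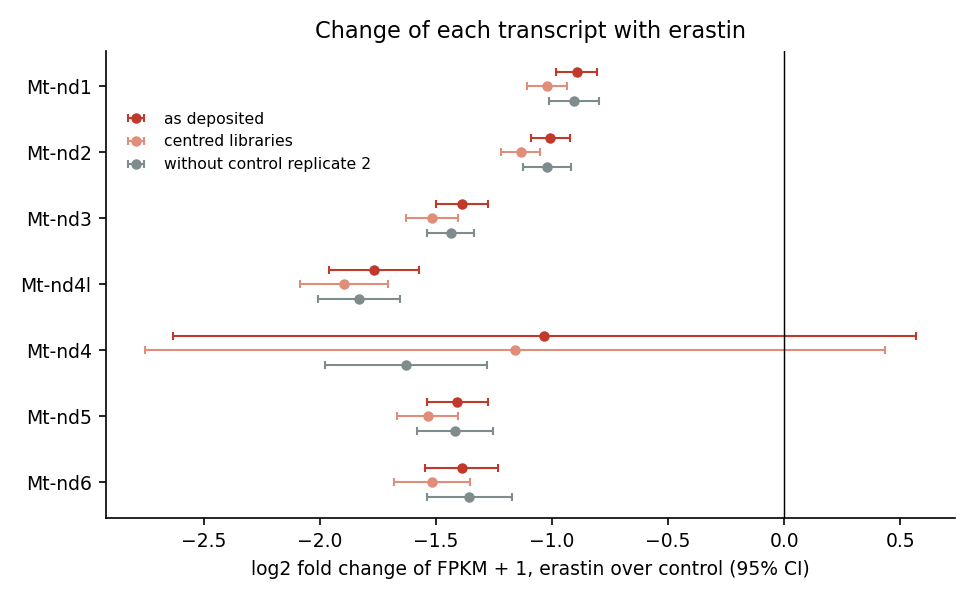
Log2 fold change of FPKM + 1, erastin over control, with its 95% confidence interval from limma, for the values as deposited, for libraries centred on their median log ratio, and without control replicate 2. The intervals of 6 genes lie below 0 in all 3, and that of Mt-nd4 spans 0 unless control replicate 2 is left out.

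The light-strand member was set against the heavy-strand members within each library. The log2(FPKM + 1) of Mt-nd6 minus the mean over the 6 heavy-strand members was -1.20, -1.37 and -1.15 in erastin replicates 1 to 3, against -1.31, -0.79 and -1.22 in control replicates 1 to 3. These values overlapped between the groups, and the erastin minus control difference of -0.14 had an exact two-sided permutation p of 0.6, where 0.1 is the smallest that 3 against 3 libraries can give. Without Mt-nd4 in the heavy-strand mean the difference was -0.095 (exact permutation p = 0.4). Without control replicate 2 the sign turned, to a difference of 0.018 (exact permutation p = 1). Since this test cannot pass 0.05 with 3 against 3 libraries, whether the strands differed in their response to erastin is not answered by it. The heavy-strand mean also spans members with log2 fold changes from -1.77 to -0.89, on both sides of that of Mt-nd6.

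The sizes of the falls were also set beside each other as ratios to Mt-nd1 within the same library, where the scaling to the library total cancels. The choice of Mt-nd1 as denominator was made after its values were seen, so these ratios are a description with no test. Mt-nd1 had the least negative log2 fold change of the members, so ratios to it lean downward in erastin libraries for the others. Among all tested features, 6.14% had a more negative log2 fold change than Mt-nd1. For the 6 other members the downward direction was set by the choice of Mt-nd1, since all of them had more negative log2 fold changes. The ratio of Mt-nd2 was 1.03 ± 0.0095 in erastin and 1.11 ± 0.0037 in control libraries (SD, n = 3 each). For Mt-nd3 it was 0.461 ± 0.028 in erastin and 0.650 ± 0.035 in control libraries, and for Mt-nd5 it was 0.396 ± 0.028 in erastin and 0.565 ± 0.016 in control libraries. For Mt-nd4l it was 0.207 ± 0.017 in erastin and 0.380 ± 0.026 in control libraries. Mt-nd6 had 0.204 ± 0.0078 in erastin and 0.288 ± 0.020 in control libraries. Among all other tested features, 5.48% had every erastin ratio below every control ratio. This held for 5 of these 6 members, whose direction the choice of denominator had set, so it is no enrichment over that share. The exception was Mt-nd4. Its ratios were 0.288, 0.403 and 0.299 in erastin replicates 1 to 3, against 0.515, 0.160 and 0.564 in control replicates 1 to 3, so that its groups were apart without control replicate 2. In the order of the genes along the heavy strand, the pair encoded early, Mt-nd1 and Mt-nd2, had smaller falls than Mt-nd3, Mt-nd4l and Mt-nd5, which are encoded later. Mt-nd4, also encoded later, did not follow this order as deposited, with a log2 fold change of -1.03 close to the -1.01 of Mt-nd2, and did so only without control replicate 2, at -1.63 against -1.02 for Mt-nd2. Mt-nd1 and Mt-nd2 were also the most abundant members in both groups, so place along the strand and level cannot be told apart here. The order was noticed in the values and was not tested.

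**Figure D3:**
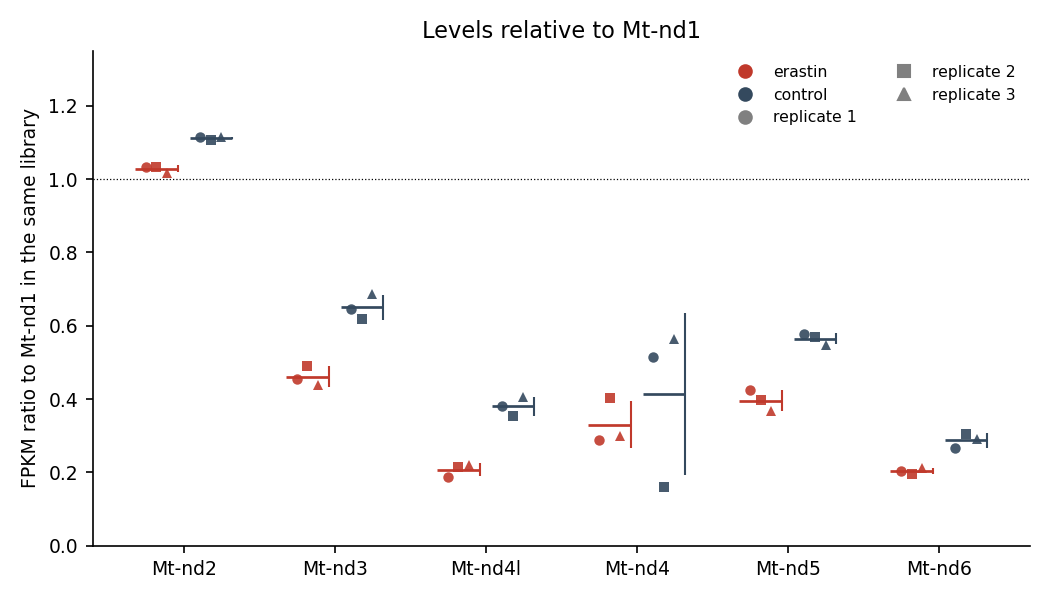
FPKM of 6 members divided by that of Mt-nd1 in the same library, erastin left of control, with a horizontal line at the mean and a vertical line for the SD (n = 3), and genes in their order along mitochondrial DNA. Erastin ratios lie below control ratios for all members shown except Mt-nd4, where control replicate 2 is at 0.160.

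Ordered by mean FPKM, a level per length, the 7 transcripts stood in the same sequence in both groups. In erastin libraries the means ran from Mt-nd2 at 2050 over Mt-nd1 at 1994, Mt-nd3 at 918, Mt-nd5 at 789, Mt-nd4 at 654 and Mt-nd4l at 413 to Mt-nd6 at 407 FPKM. The neighbours Mt-nd2 and Mt-nd1, Mt-nd5 and Mt-nd4, and Mt-nd4l and Mt-nd6 overlapped there. In control libraries the means ran from Mt-nd2 at 4117 over Mt-nd1 at 3702, Mt-nd3 at 2408, Mt-nd5 at 2090, Mt-nd4 at 1537 and Mt-nd4l at 1409 to Mt-nd6 at 1065 FPKM. Here Mt-nd4 overlapped Mt-nd5 through control replicate 3 and Mt-nd4l through control replicate 2, and all other neighbours were apart. By mean FPKM over all features of the table, Mt-nd2 ranked 11 in erastin and 8 in control libraries, and Mt-nd4l ranked 160 in erastin and 23 in control libraries. FPKM here divides by the whole counted length, with no correction for fragment length, so levels of genes of different length compare only roughly.

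Summed over the 7 members, FPKM was 7319, 7067 and 7290 in erastin replicates 1 to 3, against 16813, 14954 and 17218 in control replicates 1 to 3. All erastin sums were below all control sums, and the spread within the erastin group was small. The log2 ratio of the mean sums, erastin over control, was -1.18, and -1.24 without control replicate 2. The shares that follow include that library. The members held 1.34 ± 0.024% of all FPKM in erastin and 3.01 ± 0.217% in control libraries (SD, n = 3 each; exact two-sided permutation p = 0.1, the smallest possible). As a share of recovered reads they held 0.703 ± 0.0136% in erastin and 1.56 ± 0.138% in control libraries (SD, n = 3 each). Without Mt-nd4 the sum was 6571 ± 233 FPKM in erastin and 14791 ± 379 FPKM in control libraries, 2.25-fold lower.

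The fall of these transcripts was set beside features of like abundance. Among the other 54 features whose mean over the 6 libraries was at or above that of Mt-nd6, the least abundant member, 27 fell, 24 rose and 3 did not pass in limma, and 12 fell by a log2 fold change of at least 1. The median log2 fold change of these 54 was -0.078. Other genes of mitochondrial DNA could not be matched to the identifiers, so any among these 54 were not set apart from nuclear genes. FPKM is scaled to the library total, and the median log2 ratio of all tested features was shifted upward by 0.13 in erastin libraries. Centred on that median, the log2 fold changes of the members were -1.02 for Mt-nd1, -1.14 for Mt-nd2, -1.52 for Mt-nd3, -1.90 for Mt-nd4l, -1.16 for Mt-nd4, -1.54 for Mt-nd5 and -1.52 for Mt-nd6, with the same calls. Reads shared with copies of mitochondrial DNA in the nuclear genome could not be separated in the deposited values.

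**Figure D4:**
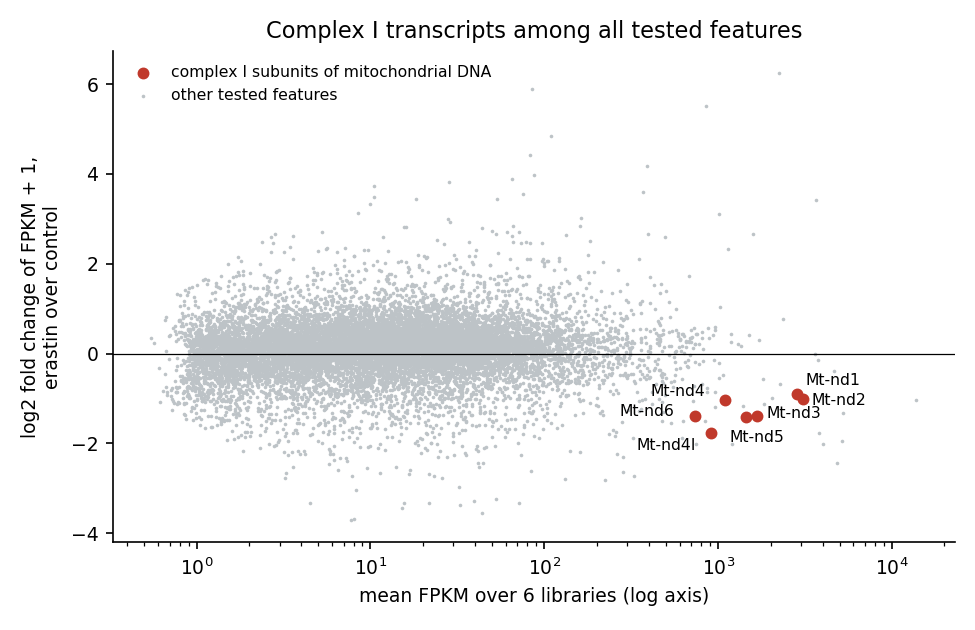
Log2 fold change of FPKM + 1, erastin over control, against mean FPKM over the 6 libraries on a log axis, for each of the 13576 tested features. The 7 members, in red, lie among the abundant features and between -1.77 and -0.89 on the log2 scale.

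The features whose pattern over the 6 libraries was most like the mean of the members were found by the distance between profiles of log2(FPKM + 1), each centred on its own mean. Among 6781 other features at or above the median level of 12.5 FPKM, the closest was ENSRNOG00000049873, at a distance of 0.166, nearer than any member, of which Mt-nd3 at 0.209 was the closest. It had 10.5, 10.7 and 10.3 FPKM in erastin replicates 1 to 3, against 27.4, 25.4 and 27.9 FPKM in control replicates 1 to 3. The next, ENSRNOG00000006893 at a distance of 0.200, had 18.5, 17.0 and 17.0 FPKM in erastin replicates 1 to 3, against 43.7, 41.3 and 44.7 FPKM in control replicates 1 to 3. The feature after these was at a distance of 0.201, with 8.02 ± 0.126 FPKM in erastin and 23.0 ± 3.57 FPKM in control libraries (SD, n = 3 each). The match depended on control replicate 2, in which Mt-nd4 was low. Over the 5 other libraries 0 of these 3 features were among the nearest 3, and they stood at places 7, 22 and 60. These features were chosen for their likeness over the same libraries, so their results in the limma fit are no separate evidence and are not given. The sources used here do not pair their identifiers with names.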

How the data were processed

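RNA of 3 erastin and 3 control libraries was measured by paired-end sequencing of poly(A) RNA, with the second strand marked by dUTP, per the labels' protocols. The submitters' processing notes list HISAT2 2.0.5 and DESeq2 without saying what each did. The counter, annotation and build were not given in the sources used here. FPKM for 34052 features were deposited by the authors, in which each library is scaled to its own total. In tested features, 100.0% of values above 0 equalled whole reads over a whole length within a relative tolerance of 1e-06, which gave library totals and reads. Features reaching 1 FPKM in 3 or more libraries (13576) were fitted on log2(FPKM + 1) in R 4.3.3 with limma 3.58.1, using a robust, trended prior, and p-values were adjusted by Benjamini-Hochberg over all of them. On this scale the fold change of a low feature is understated. Exact two-sided permutation tests in scipy 1.17.1 served for single values per library. The recovery of reads and the limma fit were tested on simulated data, and the permutation tests were not.

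The members, the lists and the tests were chosen with earlier results of these data known. The genes reported are the 7 members and the 3 features nearest to their mean profile. The reference table, of assembly GRCr8, matched 0 feature identifiers, so nuclear complex I subunits, other mitochondrial genes and cell markers were not analysed here. Alternatives were a pseudocount of 0.1, no filter, a filter at a mean of 5 FPKM, quantile normalization, centring, limma's voom on recovered reads, the replicate block, an adjusted p under 0.01 and each library left out. The sums and strand values without Mt-nd4, the nearest profiles without control replicate 2 and the count of falls by a log2 fold change of 1 under each setting were added after the data were seen.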

Additional observations from a re-analysis of the deposited data

How the results depend on the processing

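Mt-nd1, Mt-nd2, Mt-nd3, Mt-nd4l, Mt-nd5 and Mt-nd6 stayed lower in erastin libraries and past the adjusted p in limma in all 13 alternatives run for each, but quantile normalization shrank Mt-nd1 to -0.26 and Mt-nd2 to -0.33. Mt-nd4 passed only without control replicate 2, at -1.63, and leaving out each library in turn gave -1.63 to -0.70. The number of members called was 6, beside 9011 of 13576 features as deposited, which is 66.4%. It was 7 without control replicate 2, beside 8064 of 13163 features. The number of features called depended on the filter. It ran from 7230 of the 9648 with a mean of at least 5 FPKM to 9308 of the 22354 tested with no filter. The difference of Mt-nd6 from the heavy-strand members ranged from -0.24 to 0.018 as each library was left out, with the sign turned without control replicate 2. The share of called features that rose was 63.7% as deposited and 49.8% with centring. With the replicate block, 6 members and 8768 of 13576 features were called, and Mt-nd4 was at -1.03 (limma adjusted p = 0.303). The labels do not pair libraries of the same number, whose deviations correlated at -0.028, 0.072 and 0.027 across features, and not every library correlated best with its own number. The alternatives for the nuclear complex I and other mitochondrial lists were not run, since no identifiers matched. The number of libraries limits the library-level tests, which cannot pass 0.05.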
